A study of Arabidopsis thaliana with 6 samples.

Results

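The 33 genes described here encode proteins of the photosynthetic machinery, and their transcripts were followed in 6 polyA RNA-seq libraries of Arabidopsis thaliana roots. They were chosen by gene ID, as members of a list named for the small subunit of Rubisco (RBCS), the antenna proteins of both photosystems (LHCB and LHCA), photosystem subunits (PSB and PSA), electron carriers (PETC and PETE) and enzymes of carbon fixation (RCA, GAPA, GAPB, PRK and CA1). All 33 were found among the 29613 gene IDs of the count files. The question was whether their level followed single libraries, the genotype or the replicate number.

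The 35S:NPC48 group had 3 libraries, from roots of plants that express NPC48 under the 35S promoter of cauliflower mosaic virus, which is active in most plant cells. The WT group had 3 libraries from roots of the wild type Col-0. Both groups share the growth regime given in the labels, with medium containing 500 µM phosphate, 33% humidity, 24 °C by day, 21 °C by night, 16 h of light and 8 h of dark, and a growth stage of Boyes 1.0. The number of transgenic lines behind the 35S:NPC48 libraries and the number of plants in each library are not stated in the sources used here. No source used here states that libraries of a group came from separate cultures, so each p-value refers to the scatter among these libraries, which may be technical in part. NPC48 itself matched no gene ID in the files, so its level was not examined.

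Photosynthesis genes of the nucleus are transcribed strongly in green leaf cells with chloroplasts, where their proteins are imported and assembled around chlorophyll. Antenna proteins gather light, the photosystems and electron carriers turn it into reducing power, and the Calvin cycle uses that power to fix carbon dioxide. Roots hold mostly non-green plastids, and the same genes are held low there, although roots exposed to light can turn green.

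Total counts were 9479418, 20789863 and 20120659 in 35S:NPC48 replicates 1, 2 and 3, against 21232247, 21055370 and 23830604 in WT replicates 1, 2 and 3. The shallowest library was 35S:NPC48 replicate 1 and the deepest was WT replicate 3, and these are the 2 libraries in which the photosynthesis genes were highest. Levels are given as CPM, the read count scaled to a common library size, so depth sets their precision rather than their size, and a count of 3 equals 0.320 CPM in 35S:NPC48 replicate 1 but 0.126 CPM in WT replicate 3. All 12 root markers were present, with summed levels of 845, 760 and 933 CPM in 35S:NPC48 libraries and 785, 771 and 1057 CPM in WT libraries.

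As a sum, the photosynthesis genes were high in 1 library of each genotype and low in the other 4. Their summed level was 305, 162 and 158 CPM in 35S:NPC48 replicates 1, 2 and 3, against 124, 94.3 and 270 CPM in WT replicates 1, 2 and 3. The groups overlapped, with means of 208 ± 84.0 CPM in 35S:NPC48 and 163 ± 94.2 CPM in WT (SD, n = 3 libraries each). In all libraries these genes took a small part of the counts, 0.0302%, 0.0155% and 0.0157% in 35S:NPC48 and 0.0131%, 0.00945% and 0.0269% in WT.

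The same picture held for the typical gene of the list. The median log2 CPM over the 33 genes was 2.32, 1.04 and 0.81 in 35S:NPC48 replicates 1, 2 and 3, against -0.08, -0.14 and 2.52 in WT replicates 1, 2 and 3. In 35S:NPC48 replicate 1 and in WT replicate 3 every one of the 33 genes had a count. In the other 4 libraries 5 or 6 genes had none. Genes above 1 CPM numbered 29, 18 and 18 in the 35S:NPC48 libraries and 16, 14 and 27 in the WT libraries. These are bulk libraries, so fewer cells that carry a transcript and less of it per cell cannot be told apart.

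**Figure D1:**
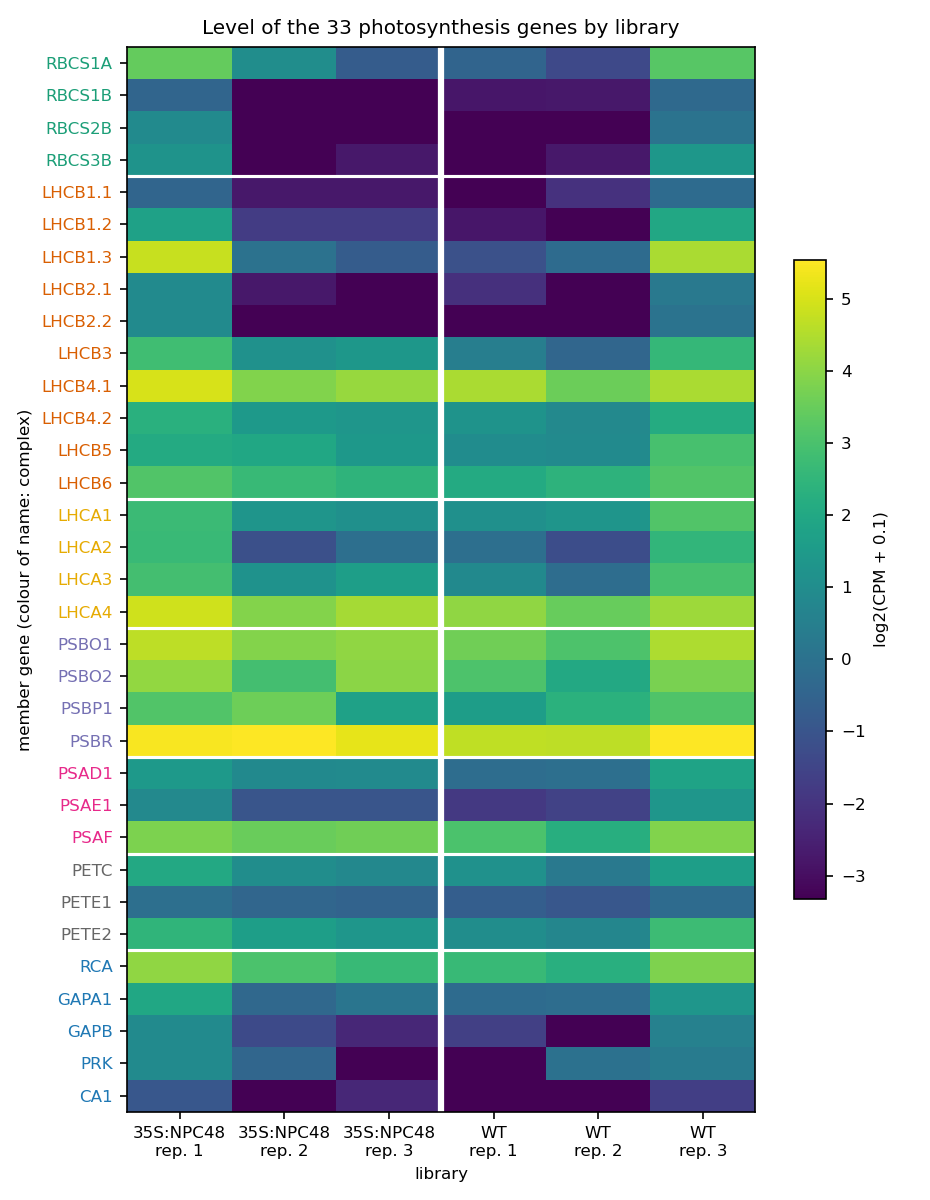
Level of each of the 33 genes (rows, names coloured by complex) in the 6 libraries (columns, 35S:NPC48 left of WT), as log2 of CPM plus 0.1. The columns of 35S:NPC48 replicate 1 and WT replicate 3 are the brightest, and all 33 genes had a count in both.

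In 29 of the 33 genes the 2 highest libraries were 35S:NPC48 replicate 1 and WT replicate 3. Among the 19608 genes with enough counts to be tested, 7.37% had that pair on top, and of the photosynthesis genes that were tested 19 of 23 had it. The antenna gene LHCA4 and the oxygen-evolving complex gene PSBO2 were instead highest in 35S:NPC48 replicates 1 and 3, as were 7.37% of all tested genes. PSBP1 of the same complex was highest in 35S:NPC48 replicates 1 and 2, as were 5.19%. PSBR (AT1G79040) was highest in 35S:NPC48 replicate 2 and WT replicate 3, as were 3.42%. The most frequent top pair among all tested genes was replicate 2 of both genotypes, with 21.5% of genes. None of the 33 photosynthesis genes showed it. The single highest library was 35S:NPC48 replicate 1 for 19 genes and WT replicate 3 for 12.

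Within each complex the genes with the highest and the lowest mean CPM are given for each library, where CPM does not correct for the length of a gene. The Rubisco small subunit genes showed the sharpest contrast between libraries among the 7 complexes. Rubisco is the enzyme that fixes carbon dioxide, and in Arabidopsis its small subunit is encoded by a small family. The family's summed level was 15.6, 1.96 and 0.550 CPM in 35S:NPC48 replicates 1, 2 and 3, against 0.668, 0.379 and 13.5 CPM in WT replicates 1, 2 and 3. The family made up 5.09%, 1.21% and 0.348% of the list's summed level in 35S:NPC48 and 0.541%, 0.402% and 4.99% in WT.

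RBCS1A (AT1G67090), which had the highest mean CPM of the family, had 10.9, 1.96 and 0.50 CPM in 35S:NPC48 and 0.623, 0.284 and 9.35 CPM in WT. Both groups hold 1 high library and their ranges overlap, and the genotype difference was a log2 fold change of 0.30 ± 1.37 (SE, edgeR adjusted p = 1.00). RBCS1B (AT5G38430), with the lowest mean CPM, had 0.639, 0 and 0 CPM in 35S:NPC48 and 0.0445, 0.0474 and 0.716 CPM in WT. RBCS3B (AT5G38410) had 2.24, 0 and 0.05 CPM in 35S:NPC48 and 0, 0.0474 and 2.49 CPM in WT. The 2 high libraries are the same for all 3 of these genes. RBCS2B (AT5G38420) had 17 counts in 35S:NPC48 replicate 1, 22 in WT replicate 3 and none in the other 4 libraries. Set against a floor of 3 counts per library, RBCS2B was at least 12.0-fold higher in 35S:NPC48 replicate 1 than in 35S:NPC48 replicate 2 and at least 6.94-fold higher in WT replicate 3 than in WT replicate 1. These bounds cover counting error only. RBCS1A lies on chromosome 1 and the other 3 genes lie on chromosome 5. In the reference transcripts 21.4% of the 50-base words of RBCS2B also occur in other genes, so reads could be split between these copies and the single values are uncertain.

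The antenna of photosystem II held 5 LHCB1 and LHCB2 genes that stayed under 1 CPM outside the 2 high libraries, and 4 genes above 1 CPM in every library, with LHCB3 between them. The LHCB1 and LHCB2 genes encode the trimeric light-harvesting complex, the most abundant membrane protein of the leaf. LHCB1.3 (AT1G29930), named CAB1 in the reference annotation, had 27.8, 0.903 and 0.50 CPM in 35S:NPC48 replicates 1, 2 and 3, against 0.356, 0.759 and 21.5 CPM in WT replicates 1, 2 and 3. This spread of 78.1-fold between its highest and lowest library was the widest among the genes with a count in each library. The genotype difference of LHCB1.3 was 0.30 ± 1.72 on the log2 scale (SE, edgeR adjusted p = 1.00).

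The other trimer genes repeated this pattern at lower levels. LHCB1.2 (AT1G29910) had 3.30, 0.201 and 0.200 CPM in 35S:NPC48 and 0.0445, 0 and 3.88 CPM in WT. LHCB1.1 (AT1G29920), with the lowest mean CPM of the antenna, had 0.639, 0.0502 and 0.05 CPM in 35S:NPC48 and 0, 0.142 and 0.758 CPM in WT. All 3 of these genes had the same 2 high libraries. LHCB2.1 had 1.81, 0.0502 and 0 CPM in 35S:NPC48 and 0.134, 0 and 1.095 CPM in WT. LHCB2.2 had 17 counts in 35S:NPC48 replicate 1, 22 in WT replicate 3 and none in the other 4 libraries. Between 20.5% and 28.2% of the words of LHCB1.1, LHCB1.3, LHCB2.1 and LHCB2.2 occur in other transcripts, so their single values are uncertain too.

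The monomeric antenna proteins sit between the trimers and the reaction centre, and their genes LHCB4.1, LHCB4.2, LHCB5 and LHCB6 were above 1 CPM in every library. LHCB4.1 (AT5G01530) had the highest mean CPM of the photosystem II antenna, with 32.0, 14.5 and 18.0 CPM in 35S:NPC48 and 21.1, 11.5 and 21.1 CPM in WT. Its lowest libraries were replicate 2 of both genotypes, and WT replicates 1 and 3 were nearly equal. The genotype difference of LHCB4.1 was 0.25 ± 0.35 (log2, SE, edgeR adjusted p = 1.00). LHCB5 (AT4G10340) had 4.16, 3.81 and 2.55 CPM in 35S:NPC48 and 1.87, 1.80 and 7.75 CPM in WT, so WT held both its lowest and its highest library. LHCB3 (AT5G54270), a lesser component of the trimers, had 7.03, 2.16 and 2.502 CPM in 35S:NPC48 and 1.29, 0.664 and 5.86 CPM in WT. LHCB4.2 had 4.90, 2.71 and 2.40 CPM in 35S:NPC48 and 2.23, 1.71 and 4.34 CPM in WT, and LHCB6 ran from 5.30 to 8.74 CPM in 35S:NPC48 and from 4.18 to 8.76 CPM in WT. For these 4 genes the ranges of the genotypes overlapped.

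The antenna of photosystem I is built from the LHCA proteins as a belt on one side of the core. Its summed level was 50.1, 19.8 and 26.2 CPM in 35S:NPC48 replicates 1, 2 and 3, against 21.5, 14.6 and 41.2 CPM in WT replicates 1, 2 and 3. LHCA4 (AT3G47470), with the highest mean CPM, had 29.9, 14.9 and 20.3 CPM in 35S:NPC48 and 16.8, 11.05 and 19.0 CPM in WT. The groups of LHCA4 overlapped, and 35S:NPC48 was above WT within each replicate number, by 0.83, 0.42 and 0.09 on the log2 scale. The log2 fold change of LHCA4 over all libraries was 0.46 ± 0.30 (SE, edgeR adjusted p = 1.00). LHCA2 (AT3G61470), with the lowest mean CPM, had 6.29, 0.351 and 0.851 CPM in 35S:NPC48 and 0.846, 0.332 and 5.64 CPM in WT, with the same 2 high libraries as the trimer genes. LHCA3 had 7.35, 2.21 and 3.00 CPM in 35S:NPC48 and 1.74, 0.806 and 7.79 CPM in WT, with the same high libraries. LHCA1 (AT3G54890) had the lowest genotype fold change of the tested genes. Its values were 6.5, 2.36 and 2.101 CPM in 35S:NPC48 and 2.09, 2.37 and 8.68 CPM in WT, a log2 fold change of -0.31 ± 0.67 (SE, edgeR adjusted p = 1.00).

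The photosystem II subunits had the highest summed CPM of the 7 complexes and the least variation of that sum between libraries. PSBO1 (AT5G66570), PSBO2 and PSBP1 are extrinsic proteins that stabilise the manganese cluster where water is split, and PSBR is needed for their assembly. Their summed level was 94.7, 80.8 and 73.3 CPM in 35S:NPC48 replicates 1, 2 and 3, against 49.3, 42.4 and 89.3 CPM in WT replicates 1, 2 and 3. The complex made up 31.0%, 49.9% and 46.4% of the list's summed level in 35S:NPC48 and 39.9%, 44.9% and 33.1% in WT. That share was thus lowest in the 2 libraries where the whole list was highest.

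PSBR had the highest level of the list per length, at a mean of 47.7 CPM per kb of exon over the 6 libraries. It had 43.7, 46.6 and 37.4 CPM in 35S:NPC48 and 25.9, 25.03 and 45.7 CPM in WT. WT replicates 1 and 2 were low and the other 4 libraries were near each other, with a 1.86-fold spread between the extremes, the narrowest of the list. The genotype difference of PSBR was 0.40 ± 0.25 (log2, SE, edgeR adjusted p = 1.00). Next per length came LHCA4 at 14.4, LHCB4.1 at 14.1 and PSBO1 at 10.9 CPM per kb.

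PSBO2 (AT3G50820) had the highest genotype fold change among the tested genes. It had 17.3, 7.38 and 15.9 CPM in 35S:NPC48 and 8.28, 4.03 and 13.4 CPM in WT. Replicate 2 was lowest in both genotypes, 35S:NPC48 was higher within every replicate number, and the 2 groups overlapped. The log2 fold change of PSBO2 was 0.65 ± 0.47 (SE, edgeR adjusted p = 1.00). PSBO1, the other gene for the same protein, had 25.1, 14.96 and 16.8 CPM in 35S:NPC48 and 12.2, 8.34 and 21.6 CPM in WT. PSBP1 (AT1G06680), with the lowest mean CPM of the complex, had 8.63, 11.9 and 3.25 CPM in 35S:NPC48 and 2.98, 4.98 and 8.59 CPM in WT, with its 2 highest values in 35S:NPC48 replicates 1 and 2.

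Among the photosystem I subunits, PSAF docks plastocyanin, and PSAD1 and PSAE1 form the ferredoxin docking site. PSAF (AT1G31330) had 13.7, 11.4 and 12.2 CPM in 35S:NPC48 and 8.06, 4.65 and 14.4 CPM in WT. The 3 values of PSAF in 35S:NPC48 lay close together and fell inside the range of the WT values. PSAD1 (AT4G02770) had 2.66, 1.76 and 1.80 CPM in 35S:NPC48 and 0.801, 0.853 and 3.41 CPM in WT. PSAE1 (AT4G28750), with the lowest mean CPM, had 1.70, 0.402 and 0.400 CPM in 35S:NPC48 and 0.178, 0.237 and 2.44 CPM in WT. The reference lists an overlapping gene for PSAE1, and 29.1% of the words of PSAE1 occur in other transcripts, which leaves its level uncertain.

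Of the electron carriers, PETC is the Rieske iron-sulphur protein of the cytochrome complex between the photosystems, and PETE1 and PETE2 encode plastocyanin. PETE2 (AT1G20340), with the highest mean CPM, had 5.54, 3.06 and 2.40 CPM in 35S:NPC48 and 1.91, 1.56 and 6.61 CPM in WT. PETE1 (AT1G76100), with the lowest, had 0.852, 0.652 and 0.600 CPM in 35S:NPC48 and 0.534, 0.427 and 0.758 CPM in WT. The 2 plastocyanin genes had the same pair of high libraries, with a smaller contrast in PETE1. The log2 difference of WT replicate 3 minus WT replicate 1 was 1.74 for PETE2 and 0.43 for PETE1. PETC had 3.94, 1.96 and 1.65 CPM in 35S:NPC48 and 2.14, 1.09 and 3.03 CPM in WT, again highest in those libraries.

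The genes of carbon fixation spanned the range from always present to barely detected. RCA (AT2G39730), the activase that frees Rubisco from bound inhibitors, had 16.6, 8.03 and 6.204 CPM in 35S:NPC48 and 6.23, 4.74 and 14.3 CPM in WT. GAPA1 and GAPB, the subunits of the glyceraldehyde phosphate dehydrogenase of the Calvin cycle, reached 3.84 and 1.81 CPM in 35S:NPC48 replicate 1 and 2.40 and 1.39 CPM in WT replicate 3. In the other 4 libraries GAPA1 lay between 0.703 and 1.001 CPM in 35S:NPC48 and between 0.757 and 0.806 CPM in WT. PRK (AT1G32060), which regenerates the acceptor of carbon dioxide, had 17, 13 and 0 counts in 35S:NPC48 and 0, 19 and 28 counts in WT.

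CA1 (AT3G01500), a carbonic anhydrase of the chloroplast, had the lowest level of the 33 genes per length, with 4, 0 and 2 counts in 35S:NPC48 and 0, 0 and 5 counts in WT, too few to test. It lies on chromosome 3 within a run of neighbouring genes, that had stood out for positive fold changes in an earlier look at these data. The 168 tested genes of that run had a median log2 fold change of 0.98, against 0.01 over all tested genes. CA1 is the only one of the 33 genes in the run.

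**Figure D2:**
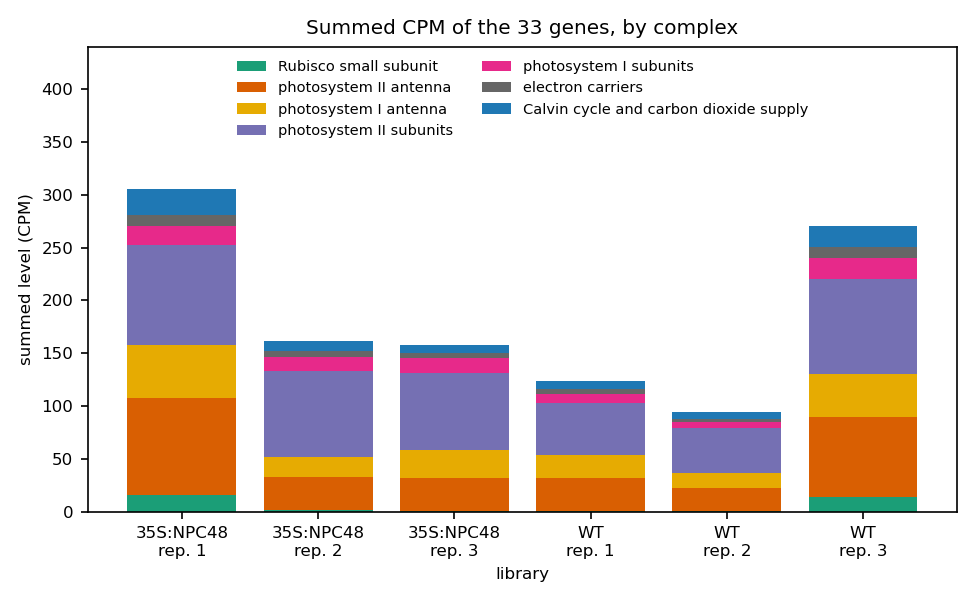
Summed level of each complex in CPM, as stacked bars for each library, with 35S:NPC48 left of WT. For every complex except photosystem I subunits and electron carriers the highest sum is in 35S:NPC48 replicate 1. In those 2 complexes it is in WT replicate 3.

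The genes fell into different ranges by their level in the 4 low libraries. In 14 genes the level was above 1 CPM in every library. These were LHCB4.1, LHCB4.2, LHCB5, LHCB6, LHCA1, LHCA4, PSBO1, PSBO2, PSBP1, PSBR, PSAF, PETC, PETE2 and RCA. Another 14 genes were under 1 CPM in each of the 4 low libraries, namely RBCS1B, RBCS2B, RBCS3B, the LHCB1 and LHCB2 genes, LHCA2, PSAE1, PETE1, GAPB, PRK and CA1. RBCS1A, LHCB3, LHCA3, PSAD1 and GAPA1 met neither rule.

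The size of the contrast between libraries differed between these kinds, although a gene chosen for low values in 4 libraries has more room to be higher in the others. The kinds were sorted by levels in libraries that also enter the differences, so this contrast is partly built in. In 35S:NPC48, the median log2 difference of replicate 3 minus replicate 1 was -3.36 in the genes under 1 CPM and -0.77 in the genes above 1 CPM. In WT, replicate 3 minus replicate 1 was 3.12 in the genes under 1 CPM and 0.88 in the genes above 1 CPM. The median over all tested genes was -0.00 in both genotypes. The 2 high libraries resembled each other, and 35S:NPC48 replicate 1 minus WT replicate 3 had a median of 0.17 over the 33 genes, with a range from -0.88 in LHCB5 to 0.89 in RBCS2B and LHCB2.2.

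**Figure D3:**
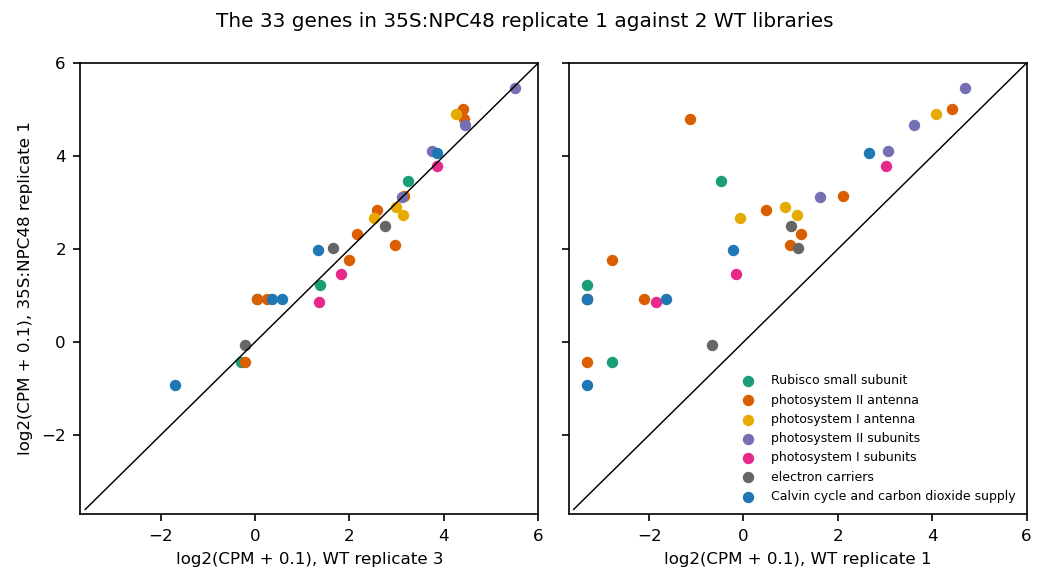
Each of the 33 genes in 35S:NPC48 replicate 1 (vertical axis) against 2 WT libraries (horizontal axes), as log2 of CPM plus 0.1, with the line of equal levels. All 33 genes lie above the line against WT replicate 1, and they scatter along it against WT replicate 3, with a median difference of 0.17.

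The genotype comparison asked which genes differed between 35S:NPC48 and WT. Of the 33 genes, 23 had enough counts to be tested. The filter asks for counts in 3 libraries, so a gene that was high in 2 libraries alone could fail it, and the 23 are not the whole list. None of the 23 was called higher or lower by edgeR's quasi-likelihood test at an adjusted p under 0.05, with a background of 0% of all tested genes higher and 0.0102% lower. None had an unadjusted p under 0.05 in edgeR's test, compared with 695 of all 19608 tested genes. DESeq2 called 0 of the 31 genes it gave a value, with 0.498% of its genes higher and 0.228% lower.

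Log2 fold changes of the tested genes ran from -0.31 in LHCA1 to 0.65 in PSBO2, with a median of 0.27, against 0.01 over all tested genes. They were positive in 21 genes and negative in LHCA1 and LHCB5. The sign of that median rested on single libraries. Without 35S:NPC48 replicate 1 the median was -0.17 and without WT replicate 3 it was 0.92, each over 23 genes. Without WT replicate 1 it was -0.07 and without WT replicate 2 it was -0.04, each over 32 genes that then passed the filter. Those last 2 medians were not taken over the same 23 genes, so the missing library and the added genes were not separated. In none of the 33 genes did the libraries of the 2 genotypes separate completely, whereas 3.94% of all tested genes had all 35S:NPC48 libraries above WT and 3.82% had all of them below.

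By complex, the median log2 fold change of the tested genes was 0.47 for the 4 photosystem II subunits, 0.36 for 2 photosystem I subunits, 0.27 for 3 genes of carbon fixation, 0.25 for 6 genes of the photosystem II antenna, 0.23 for 3 electron carriers and 0.13 for 4 genes of the photosystem I antenna. None of these genes was called, and the SE of single genes ran up to 1.72 in LHCB1.3.

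With the replicate number as a block, again none of the 23 genes was called, against a background of 0.841% higher and 0.367% lower. The median was 0.28. PSBO2 came nearest, with a log2 fold change of 0.70 ± 0.18 (SE, unadjusted p = 0.00546, edgeR adjusted p = 0.178), followed by LHCA4 with 0.44 ± 0.15 (SE, unadjusted p = 0.0211, edgeR adjusted p = 0.321). These 2 genes were the only ones of the 33 with a positive difference in all 3 replicate numbers. Of all tested genes, 51.3%, 51.2% and 49.8% were positive in replicates 1, 2 and 3. The share positive in all 3 was not counted, so this sign pattern does not set the 2 genes apart. When replicate number 3, which holds the high WT library, was left out of the blocked fit, edgeR called 16 of 23 genes higher. Of all tested genes 5.44% were called higher there, and the median of the photosynthesis genes was 1.09. Without replicate number 1, 0 of 23 were called, with a median of -0.15 and 191 of all tested genes called in either direction. Without replicate number 2, 0 of 32 were called, with a median of 0.10 and 118 of all tested genes called.

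Within each replicate number the direction of the genotype difference was not the same. In replicate 1 the level in 35S:NPC48 was above WT in all 33 genes, with a median log2 difference of 2.02 and a range from 0.58 to 5.93. In replicate 2 it was above WT in 24 genes and below in 6, with a median of 0.57. In replicate 3 it was below WT in 31 genes, with a median of -1.37 and a range from -5.16 to 0.24, and above WT in LHCA4 and PSBO2. Over all tested genes the medians were 0.01, 0.01 and -0.00. With 1 library per genotype in each number, these differences have no replicate check.

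**Figure D4:**
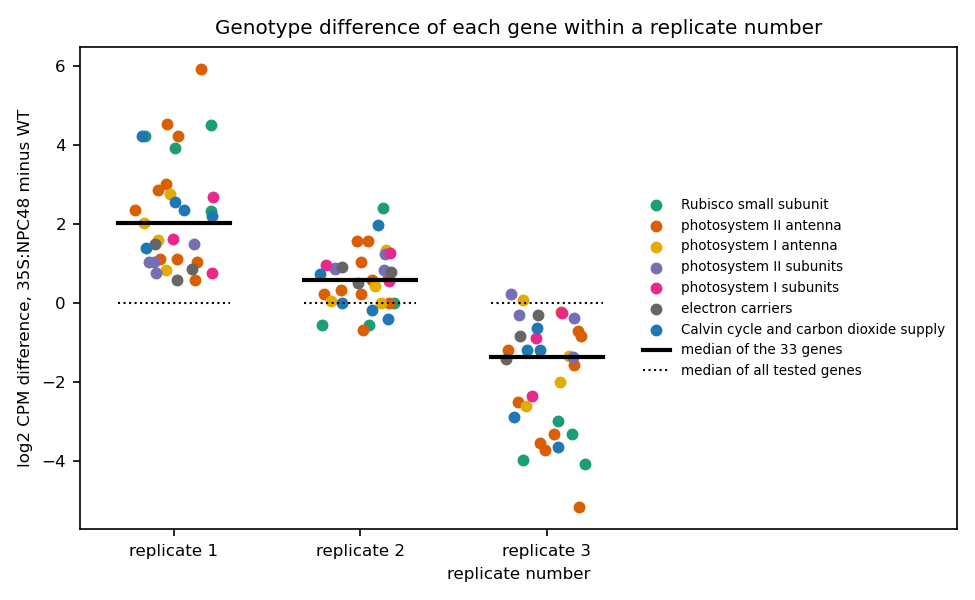
Log2 difference of 35S:NPC48 minus WT for each of the 33 genes within replicate numbers 1, 2 and 3, with the median of the genes marked. The medians are 2.02, 0.57 and -1.37, and all 33 genes lie above 0 in replicate 1.

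Calls between replicate numbers are given beside the share of all tested genes that were called. In the fit with genotype and replicate number, replicate 2 minus replicate 1 gave 3 genes lower and 0 higher of the 23 tested, against a background of 9.2% lower and 10.8% higher. LHCB4.1 was lower by a log2 difference of -1.01 ± 0.20 (SE, edgeR adjusted p = 0.0136), LHCA4 by -0.81 ± 0.19 (SE, edgeR adjusted p = 0.0231) and PSBO2 by -1.13 ± 0.23 (SE, edgeR adjusted p = 0.0145). All 3 belong to the genes that were above 1 CPM in every library. The median over the 23 genes was -0.76, and 20 of them were negative. DESeq2 called 3 genes lower and 0 higher, against 6.94% of its genes lower and 9.02% higher.

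Replicate 2 minus replicate 3 gave 1 gene lower and 0 higher, PSBO2 with -1.43 ± 0.23 (log2, SE, edgeR adjusted p = 0.00535), against a background of 10.4% lower and 11.3% higher. The median was -0.85, and 21 of the 23 genes were negative. DESeq2 called 2 genes lower and 0 higher, against 7.98% of its genes lower and 8.76% higher. Replicate 3 minus replicate 1 gave 0 genes in either direction by edgeR, against a background of 0% in both directions. None of the 23 had an unadjusted p under 0.05 by edgeR there, compared with 2659 of all 19608 tested genes. DESeq2 called none of the 8 genes it gave an adjusted p, with 1.15% of its genes higher and 0.315% lower.

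These counts of called genes depended on single libraries, and the share of all tested genes called in either direction by edgeR is given beside each. For replicate 2 minus 1, the 3 called genes became 0 without 35S:NPC48 replicate 1 (10.2%), 0 without 35S:NPC48 replicate 2 (6.09%) and 20 without 35S:NPC48 replicate 3 (40%). They became 15 without WT replicate 1 (8.31%), 5 without WT replicate 2 (8.86%) and 14 without WT replicate 3 (39.8%), and 1 when genotype was not in the fit (14.4%). For replicate 3 minus 1, the count of 0 became 22 without 35S:NPC48 replicate 3 (10.8%) and 7 without WT replicate 3 (9.07%). For replicate 2 minus 3, the single called gene became 6 without 35S:NPC48 replicate 1 (20.8%) and 30 without 35S:NPC48 replicate 3 (33.1%). It became 11 without WT replicate 1 (21.1%), 2 without WT replicate 2 (9.21%), 4 without WT replicate 3 (32.7%) and 2 with no filter on low counts (18.6%). The filter kept 23 of the 33 genes without 35S:NPC48 replicate 1 or WT replicate 3, the 2 high libraries, and 32 without any other library. With a library left out, the filter asks for counts in 2 libraries, so genes high in those 2 alone could then pass. The counts of called genes are therefore partly set by the filter, and those over 23 and over 32 genes are not directly comparable.

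The 3 sources of variation were then set side by side. For each gene the sum of squares of log2 CPM over the 6 libraries was split into genotype, replicate number and a remainder, which is the part where the genotype difference varies from one replicate number to the next. Over the 33 genes the median shares were 4.96% for genotype, 25.9% for replicate number and 66.2% for the remainder. In the 10 genes of the list that were not tested they were 1.16%, 25.5% and 73.5%. Over the 23 tested genes of the list they were 6.22%, 28.1% and 53.5%. Over all tested genes they were 8.05%, 65.9% and 15.2%. The remainder was the largest share in 26 of the 33 genes, replicate number in 7 and genotype in none. Those 26 include the 10 genes that were not tested. Of all tested genes, the remainder was the largest in 17.8%, replicate number in 70.5% and genotype in 11.7%.

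Single genes departed from this. LHCB4.1, LHCA4 and PSBO2 had 79.7%, 61.8% and 69.9% of their variation in the replicate number, while LHCB1.3 had 85.5% in the remainder and 0.451% in the genotype. PSBR had the highest genotype share of the 33 genes, at 36.8%, with 50.1% in the remainder.

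**Figure D5:**
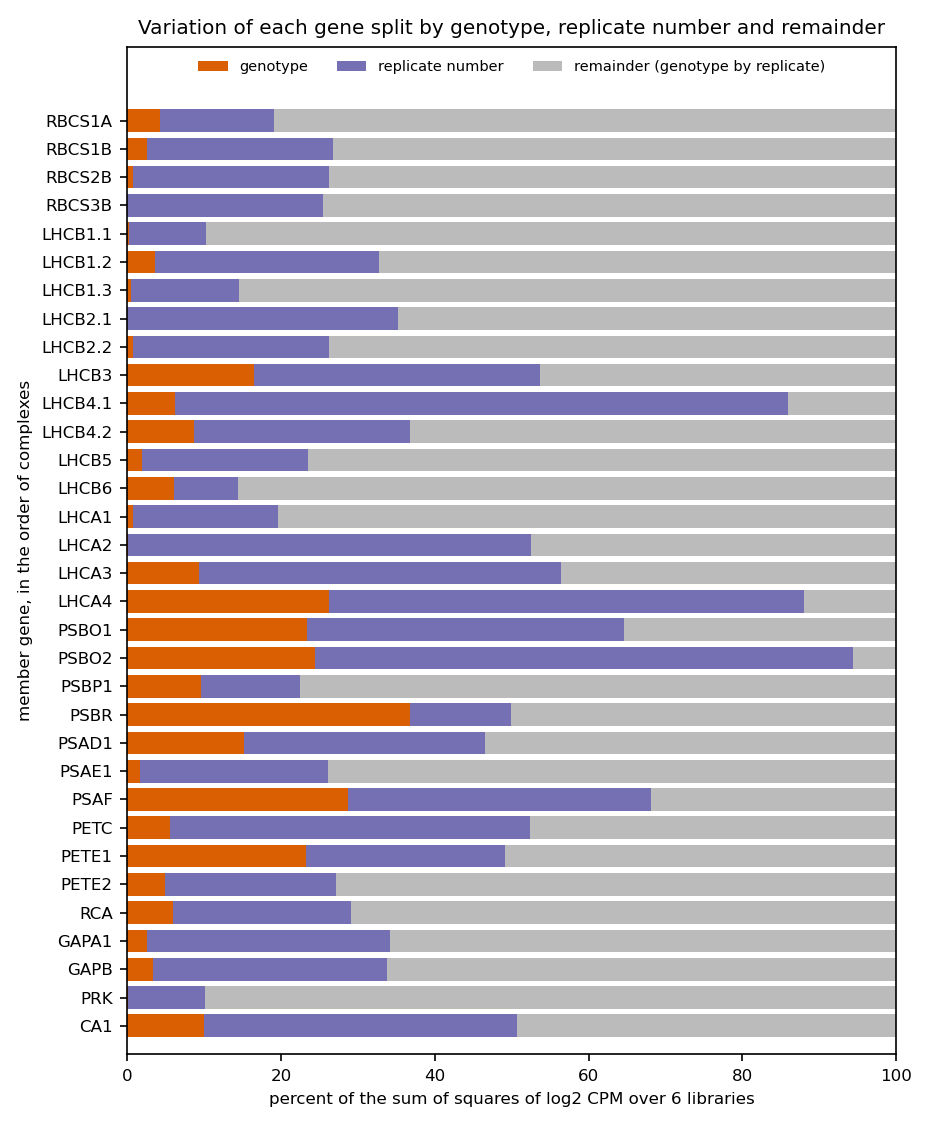
For each of the 33 genes, the percent of the sum of squares of log2 CPM over 6 libraries that falls to genotype, replicate number and remainder. The remainder is the longest bar in 26 genes, and LHCB4.1, LHCA4 and PSBO2 stand out by their replicate share.

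Marker genes of other tissues were looked at beside these levels. The 15 leaf and shoot markers without a role in photosynthesis had summed levels of 16.8, 40.8 and 12.3 CPM in 35S:NPC48 replicates 1, 2 and 3, against 12.5, 33.5 and 16.5 CPM in WT replicates 1, 2 and 3, with replicate 2 highest in both genotypes. STOMAGEN, YAB5, MAH1, WSD1, TGG2 and GL1 had no count in any library. The 10 stomata and guard cell markers summed to 1.598, 1.66 and 1.15 CPM in 35S:NPC48 and 1.65, 1.23 and 1.26 CPM in WT, and MUTE, FAMA, EPF1, KAT1 and SLAC1 had no count. The summed levels of these 2 marker lists were not highest in the 2 libraries where the photosynthesis genes were highest. Of the leaf and shoot markers 2 of the 9 with counts had that pair on top, and of the guard cell markers 0 of 5. Between replicates 1 and 3 alone, the leaf and shoot sum was higher in replicate 1 of 35S:NPC48 and in replicate 3 of WT. That subset was chosen with the values known, and it leaves out the libraries with the highest sums. The median log2 difference of 35S:NPC48 minus WT in replicates 1, 2 and 3 was 0.51, 0.57 and -0.45 for those 9 markers. For the 5 guard cell markers it was 0, 0.57 and 0. The part of shoot tissue in the level of the photosynthesis genes was not tested.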

How the data were processed

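PolyA RNA-seq of roots was analysed from 6 libraries, 3 of 35S:NPC48 and 3 of WT. The values deposited by the authors are raw counts of reads for each gene. The submitters' processing notes name Trimmomatic 0.36, Subread 1.6.5, featureCounts and STAR 2.5.2b, and the build TAIR10. The annotation release, strand setting and handling of multiply matching reads were not given in the sources used here, so overlapping genes cannot be told apart.

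Tests used DESeq2 1.42.0, edgeR 4.0.16 and limma 3.58.1 under R 4.3.3. The filterByExpr rule (minimum count 10, minimum total 15) passed 19608 genes, and libraries were scaled by TMM. CPM uses those library sizes, and log2 CPM a prior count of 2. Between genotypes, edgeR's quasi-likelihood test was run with genotype alone, and a call is a Benjamini-Hochberg adjusted p under 0.05 over all tested genes. Replicate numbers were compared in a fit with genotype and number. The SE given with an edgeR log2 value is its absolute size divided by the square root of the test's F statistic. DESeq2 ran on unfiltered counts. Scripts were tested on simulated counts.

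Replicate numbers come from the labels. Deviations from group means correlated between equal numbers at 0.53, 0.83 and 0.37, each over 0.1, so the numbers were taken as pairs. However, 35S:NPC48 replicate 3 correlated with WT replicate 1 at 0.39, above its 0.37 with WT replicate 3. The correlation of 35S:NPC48 replicate 1 with WT replicate 3 was 0.34. These crossed values are also over 0.1, so for numbers 1 and 3 the pairing rests on the labels. The differences within replicate numbers and the remainder share depend on it. Chi-square per degree of freedom between libraries of a group ran from 16.3 to 96.1, and all 6 libraries were treated as separate.

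The genes and lists were chosen with earlier results of these data known. Genes given in full were, by rule, those with the highest and lowest mean CPM of each complex, those with the highest and lowest genotype fold change, called genes and CA1. Outside the list they were called genes of the fixed lists and the gene with the highest mean CPM of each list. The 10 genes most like the list in pattern were named, with values for the first 3 in rank. The other genes of the list were named as members. Gene names, exon lengths and shared 50-base words come from the assembly TAIR10.1, in which 28494 of the 29613 IDs matched. As that version differs from TAIR10, no coordinates or sequences are given.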

Additional observations from a re-analysis of the deposited data

How the results depend on the processing

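With a replicate block, the count of photosynthesis genes called between genotypes was 0 and the median log2 fold change was 0.28. The called genes of the other fixed lists numbered 1 with the block, against 0 without it. Of all tested genes, edgeR with the block called 0.841% higher and 0.367% lower. Leaving out single libraries moved the count between genotypes by nothing (0 each time) and the median from -0.17 to 0.92. In the blocked fit without one replicate number, the count ran from 0 to 16 and the median from -0.15 to 1.09. Without both 35S:NPC48 replicate 1 and WT replicate 3, an alternative chosen after seeing the data, 0 genes were called, the median was 0.37, and LHCB4.1 turned to -0.02. Without one library, the log2 fold changes of RBCS1A ran from -1.48 to 3.21, of LHCB1.3 from -3.42 to 4.08, of LHCB4.1 from -0.15 to 0.46, of LHCA1 from -0.98 to 0.67, of PETE2 from -0.30 to 1.05 and of RCA from -0.24 to 0.89. In the blocked fit without one number they ran from -1.21 to 3.69 for RBCS1A, -3.20 to 4.19 for LHCB1.3, -1.10 to 0.83 for LHCA1, -0.36 to 1.25 for PETE2 (where leaving out number 2 gave -0.0652) and -0.27 to 1.09 for RCA. With limma-voom LHCB1.3 was at -0.24. Between replicates 2 and 1, the replicate number alone gave 1 called gene, and leaving out libraries gave 0 to 20. Between replicates 3 and 1 leaving out libraries gave 0 to 22, and between replicates 2 and 3 it gave 1 to 30. Between replicates 2 and 3, DESeq2 and no filter gave 2. The causes were not tested, apart from the number of genes tested, which the filter sets at 23 or 32. The medians per library, the differences within replicate numbers and the shares of variation moved by less than their spread under other prior counts, size factors, no scaling and without CA1. Depth limits the genes under 1 CPM most in 35S:NPC48 replicate 1, the library with the lowest total count.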

Other observations

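Photosynthesis genes outside the list were read in the same libraries. Among 20 other photosystem subunits, 12 had 35S:NPC48 replicate 1 and WT replicate 3 as their 2 highest libraries, and among 8 other antenna genes 3 did. PSAK, with the highest mean CPM of those subunits, had 11.2, 6.83 and 10.7 CPM in 35S:NPC48 and 4.85, 4.12 and 13.7 CPM in WT. LHCB1.5, with the highest mean CPM of those antenna genes, had 29.9, 7.48 and 16.6 CPM in 35S:NPC48 and 9.13, 2.47 and 26.7 CPM in WT. LHCB1.4, named after its values were seen, had 57 counts in 35S:NPC48 replicate 1, 139 in WT replicate 3 and none in the other 4 libraries.

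The same count was made for the other lists. The number with that top pair was 2 of 11 for other electron transport and ATP synthase genes, 7 of 17 for other Calvin cycle genes, 4 of 17 chlorophyll synthesis genes with counts, 6 of 12 photorespiration genes with counts, 1 of 9 non-green plastid genes and 0 of 12 regulators. The median log2 difference of WT replicate 3 minus replicate 1 was 1.29 for the other photosystem subunits, 0.98 for the other antenna genes and 0.06 for the regulators. HY5, the light-signalling regulator with the highest mean CPM among the regulators, had 59.0, 64.5 and 53.4 CPM in 35S:NPC48 and 58.7, 56.1 and 56.2 CPM in WT. The 14 gene IDs with the prefix ATCG, which marks genes of the chloroplast genome, had none with that pair and summed to 6.61, 11.3 and 27.5 CPM in 35S:NPC48 and 6.19, 4.12 and 10.4 CPM in WT. PolyA selection keeps few transcripts of that genome. The one gene of all these lists called between genotypes was CP12-1, a small regulator of the Calvin cycle, with 43.0, 14.0 and 36.0 CPM in 35S:NPC48 and 24.2, 7.16 and 23.5 CPM in WT. Its log2 fold change was 0.79 ± 0.11 with the replicate block (SE, edgeR adjusted p = 0.0180) and 0.76 ± 0.53 without it (SE, edgeR adjusted p = 1.00). CP12-1 was the 1 called gene among 14 tested genes of its list. Of all tested genes, edgeR with the block called 0.841% higher and 0.367% lower.

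The genes with the highest mean CPM of the remaining lists are given by rule. ATPG, a subunit of the chloroplast ATP synthase, had 33.6, 20.7 and 21.7 CPM in 35S:NPC48 and 23.8, 14.6 and 22.03 CPM in WT. FBA3, an aldolase, had 459, 433 and 355 CPM in 35S:NPC48 and 364, 380 and 438 CPM in WT. CAT2, a catalase, had 506, 349 and 447 CPM in 35S:NPC48 and 466, 345 and 560 CPM in WT. GSA1 of chlorophyll synthesis stayed between 54.4 and 59.7 CPM in 35S:NPC48 and between 57.7 and 69.9 CPM in WT, and RFNR2, a ferredoxin reductase of roots, stayed between 259 and 302 CPM in 35S:NPC48 and between 289 and 405 CPM in WT. Of the marker lists, CASP1 of the root endodermis had 278, 277 and 365 CPM in 35S:NPC48 and 222, 251 and 434 CPM in WT, and VSP1 of the shoot had 7.35, 15.9 and 4.90 CPM in 35S:NPC48 and 3.78, 20.7 and 3.12 CPM in WT. HT1, a kinase of guard cells, stayed between 0.801 and 1.17 CPM in 35S:NPC48 and between 0.505 and 0.846 CPM in WT. SESA4, a seed storage protein, had 0.213, 0.602 and 0.250 CPM in 35S:NPC48 and 0.089, 0.711 and 0.421 CPM in WT, and 2 of the 9 seed storage markers had any count.

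Over the 6 libraries, 2753 genes passed a mean of 5 CPM and a range of 1 in log2 CPM, and each was set against the mean log2 CPM of the 23 tested photosynthesis genes. MBF1C, a coactivator of the heat response, was most like them at a Pearson correlation of 0.93, the only gene over 0.9. It had 208, 169 and 157 CPM in 35S:NPC48 and 130, 129 and 282 CPM in WT. The others among the 10 most alike were TCH3, PSBX, AT5G01670, AT2G20560, GLN1;4, AT1G15400, SEC14, AT3G07195 and HSP101, with correlations from 0.84 to 0.88. HSP101, a heat shock protein, had 120, 72.2 and 104 CPM in 35S:NPC48 and 80.0, 60.3 and 178 CPM in WT. These correlations share libraries and scaling, rest on 6 points and are given as a description.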
